A study of Mus musculus with 57 samples.

Results

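Wild-type (wt) mouse lung was compared between E15.5 and E12.5, where E stands for embryonic day, by taking the 8 wt lung libraries of the 57 libraries in the series, 4 for each stage. Every gene with a mean level of at least 1 TPM in either stage was tested, which kept 18124 of the 56860 genes in the count table of the respiratory system. TPM is a level made of the reads of a gene per base of its exons, rescaled so that all libraries add up alike, and can be compared between genes. The 39 *Hox* genes and 18 TALE homeobox genes, their cofactor family, were left aside. The series profiled trachea, lung, diaphragm, somites and brown fat of wt and *Hoxa5*-/- embryos by bulk RNA-seq of polyA-selected RNA, to learn which transcripts depend on *Hoxa5*. Mice of both genotypes were kept in the 129/Sv background, and the *Hoxa5* null allele carries a *neomycin* cassette in the second exon. The lung groups used here were wt at E12.5, wt at E15.5, *Hoxa5*-/- at E12.5 and *Hoxa5*-/- at E15.5, with 4 libraries each, described in the study's methods as biological replicates. The labels do not tell whether a library held the lungs of 1 embryo or of several. For its wt *Hox* levels the study counts 4 wt embryos per respiratory tissue and stage. The wt comparison asked how the lung transcriptome stood at the later stage relative to the earlier one.

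Between these stages the mouse lung is in its pseudoglandular period, when the epithelium, an outgrowth of the foregut endoderm, branches into the mesenchyme around it. Stalks behind the growing tips give rise to the conducting airways with their secretory, ciliated, neuroendocrine and basal cells, and the tips later give rise to the alveoli, lined by flat type 1 cells for gas exchange and by type 2 cells that make surfactant. Signals pass between the tips, the mesenchyme, the vessels and the mesothelium that covers the lung, among them FGF10, SHH, BMP4, Wnt ligands and retinoic acid.

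The 8 wt libraries held 27355758 to 45528006 counts. Mitochondrially encoded genes took 1.71% to 2.24% of them. This share holds nothing from *mt-Atp6*, *mt-Atp8*, *mt-Co2*, *mt-Co3*, *mt-Nd3* and *mt-Nd4l*, which had 0 counts in each of these libraries. *Xist* exceeded 100 TPM in 1 of 4 libraries at E12.5 and in 2 of 4 at E15.5, so sex was not balanced. In all 8 libraries *Nkx2-1* was found, which encodes the lung and thyroid transcription factor TTF-1. It stood at 181 to 214 TPM at E12.5 and 403 to 564 TPM at E15.5. This gene alone does not tell how much tissue other than lung a library held. The first principal component of log2(TPM + 1) separated the stages and held 70.9% of the variance. Along it the E15.5 libraries were spread out, at 32.1 for replicate 4, 37.6 for replicate 1, 47.7 for replicate 2 and 68.3 for replicate 3, while the E12.5 libraries lay between -50.9 and -41.6. E15.5 replicate 3 thus stood apart from the other E15.5 libraries, in the direction away from E12.5, and values without it are given beside the results it moves most. Without it, 18 of the 48 gene lists described here had another number of members called higher or lower, with no number changed by more than 2. In bulk RNA, a change in the number of cells of a type and a change in RNA per cell cannot be told apart.

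Of the 18124 genes, 4441 (24.5%) were called, which required an edgeR adjusted p under 0.05 and a change of at least 1.5-fold. At E15.5, 2802 genes (15.46%) were higher and 1639 (9.04%) were lower. The median log2 fold change of all genes tested was -0.011, against 1.25 among the genes called higher and -1.12 among those called lower. Changes of 4-fold or more numbered 705 upward and 316 downward, and those of 16-fold or more numbered 172 upward and 46 downward. The libraries of the stages did not overlap in 8856 genes (48.9%). Without E15.5 replicate 3, 4100 genes were called. Gene lists are described below by the number of members called and their median log2 fold change. Each such number is to be read beside the 15.46% higher and 9.04% lower over all genes tested. Where 0 members of a list were called in a direction, which was so in 15 cases, DESeq2 called 0 as well, and 0 to 2 members passed an unadjusted p under 0.05 that way. In what follows each log2 fold change is E15.5 over E12.5 with its standard error (SE), each adjusted p is that of edgeR over all genes tested, and TPM values with ± are means and SD of 4 libraries. The study counts 4 wt embryos per respiratory tissue and stage, and p-values measure the spread between the libraries made from them.

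Surfactant genes were among the steepest rises. Of 21 genes of surfactant and alveolar type 2 cells tested, 18 rose and 2 fell, with a median log2 fold change of 3.12 against -0.011 for all genes. *Sftpc* (chr14:70758389-70761521) encodes surfactant protein C, the hydrophobic protein on which type 2 cells are commonly identified. In replicates 1 to 4 it measured 14.2, 12.4, 15.4 and 20.2 TPM at E12.5 and 3669, 5087, 7607 and 2443 TPM at E15.5 (log2 fold change 8.22 ± 0.40, adjusted p = 6.2e-07), and values per library are in this order from here on. The lowest E15.5 library thus lay far above the highest E12.5 library. *Sftpb*, the other hydrophobic surfactant protein, went from 13.3, 10.4, 15.6 and 11.8 TPM to 235, 387, 736 and 169.9 TPM (log2 fold change 4.87 ± 0.46, adjusted p = 1.7e-05). *Slc34a2*, the phosphate transporter of type 2 cells, rose from 0.0416 ± 0.0338 to 44.6 ± 55.6 TPM (log2 fold change 9.95 ± 1.43, adjusted p = 2.6e-04). *Lamp3*, a membrane protein of the lamellar bodies that store surfactant, rose from 0.451 ± 0.425 to 37.2 ± 29.03 TPM (log2 fold change 6.35 ± 0.73, adjusted p = 6.3e-05). In all 4 of these genes E15.5 replicate 3 was the highest library and replicate 4 the lowest. Smaller rises were seen for *Abca3*, which moves lipid into lamellar bodies, with 13.5 ± 1.49 and 64.2 ± 24.9 TPM (log2 fold change 2.21 ± 0.23, adjusted p = 3.7e-05), and for *Sftpa1*, the water-soluble surfactant protein A, with 3.48 ± 0.904 and 27.9 ± 18.51 TPM (log2 fold change 2.98 ± 0.43, adjusted p = 2.8e-04). *Sftpd* stayed under the TPM minimum and was not tested. Both members that fell belong to fatty acid handling. *Scd1*, a desaturase, fell from 26.4 ± 8.15 to 9.55 ± 0.985 TPM (log2 fold change -1.51 ± 0.19, adjusted p = 1.2e-04). *Fabp5*, a fatty acid binding protein, fell from 100.1 ± 6.98 to 60.1 ± 5.65 TPM (log2 fold change -0.77 ± 0.08, adjusted p = 2.2e-05). Leaving out E15.5 replicate 3 left 18 higher, 2 lower and a median of 2.81, with log2 fold changes of 8.60 for *Slc34a2* and 5.71 for *Lamp3*, and leaving out E12.5 replicate 3 gave 7.09 for *Lamp3*.

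**Figure D1:**
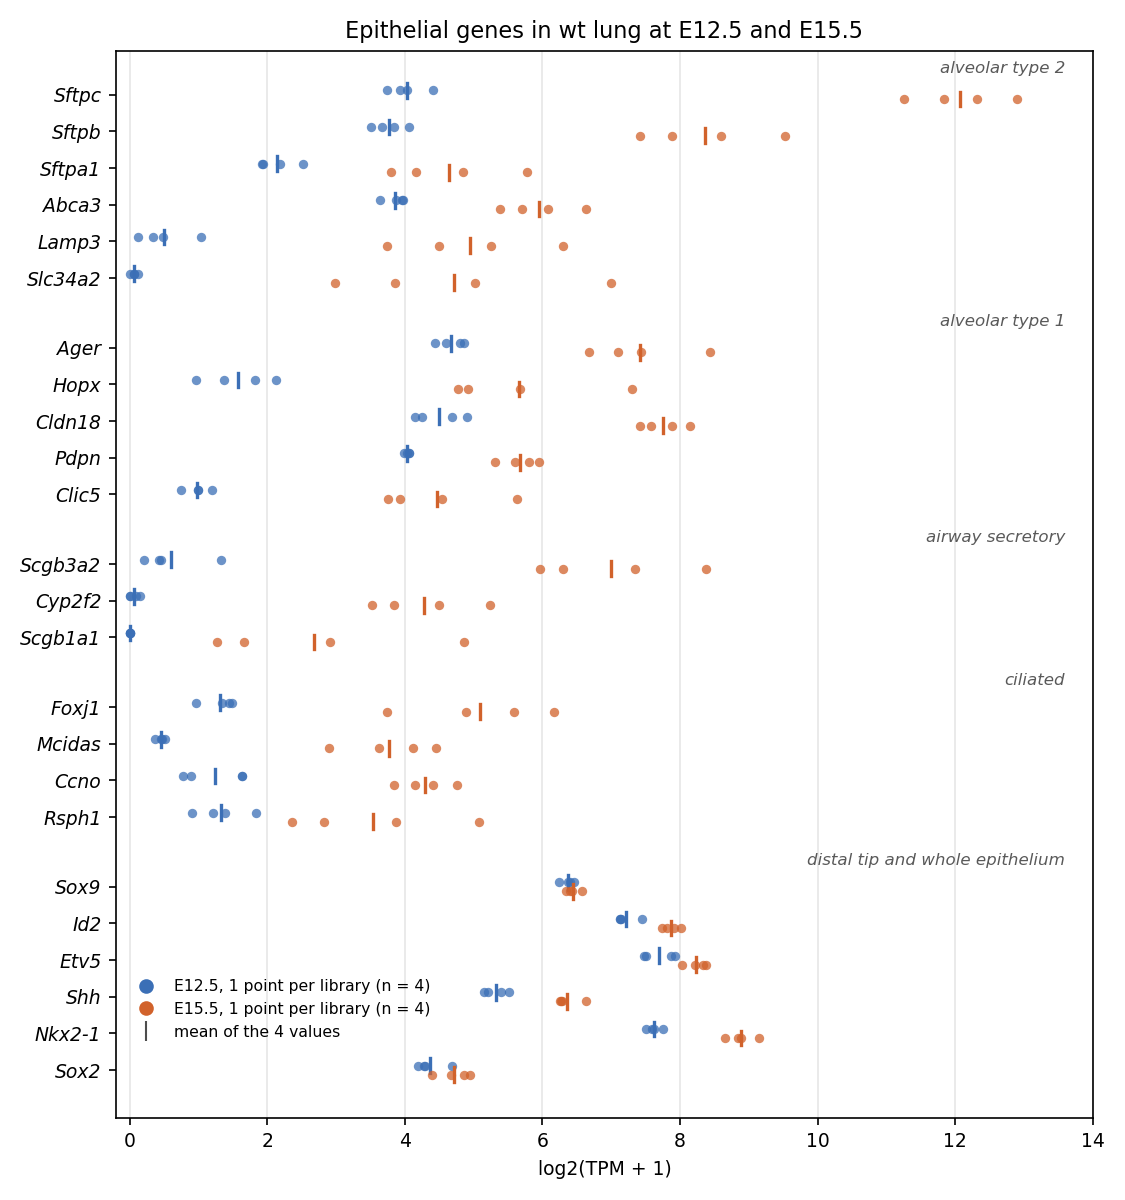
Levels of epithelial genes as log2(TPM + 1) in each wt lung library, E12.5 in blue and E15.5 in orange, with a bar at the mean of the 4 values. The stages are far apart for *Sftpc*, *Slc34a2* and *Scgb3a2*, and lie on top of each other for *Sox9*.

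NKX2-1 is known to bind surfactant gene promoters. Below are the GRCm39 reference promoters of 3 surfactant genes that rose to different extents, with transcript starts from the annotation of the authors. They are shown because this region carries the best known sites for that factor. Each runs from 250 bases before the transcript start to 50 bases after it, 5′ to 3′ on the strand of the gene, and capitals mark CTCAAG, the core of the NKX2-1 motif, or its reverse complement CTTGAG.
Sftpb (chr6:72281354-72281653, + strand): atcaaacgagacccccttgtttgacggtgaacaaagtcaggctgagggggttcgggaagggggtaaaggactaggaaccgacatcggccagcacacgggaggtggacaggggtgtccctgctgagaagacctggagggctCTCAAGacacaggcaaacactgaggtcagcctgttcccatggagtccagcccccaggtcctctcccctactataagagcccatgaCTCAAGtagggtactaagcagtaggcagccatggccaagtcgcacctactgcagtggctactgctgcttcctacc
Sftpa1 (chr14:40853495-40853794, + strand): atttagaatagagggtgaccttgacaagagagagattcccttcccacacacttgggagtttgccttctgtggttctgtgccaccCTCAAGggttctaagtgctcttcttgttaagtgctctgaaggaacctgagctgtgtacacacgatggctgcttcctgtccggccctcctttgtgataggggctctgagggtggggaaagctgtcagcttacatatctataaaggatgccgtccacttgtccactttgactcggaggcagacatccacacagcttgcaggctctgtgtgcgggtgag
Sftpc (chr14:70761472-70761771, - strand): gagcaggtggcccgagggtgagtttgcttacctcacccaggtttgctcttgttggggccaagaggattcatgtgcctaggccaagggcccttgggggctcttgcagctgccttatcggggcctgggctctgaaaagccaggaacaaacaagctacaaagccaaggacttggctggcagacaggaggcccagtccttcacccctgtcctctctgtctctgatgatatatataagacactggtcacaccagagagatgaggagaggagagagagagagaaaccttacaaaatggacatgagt
The *Sftpb* promoter held 2 matches, which began 110 and 25 bases before the start, and *Sftpa1* held 1, which began 166 bases before it. *Sftpc* held none in this window, although its log2 fold change was the largest of the 3, and the lack of these letters says nothing about binding. Searched on both strands, the letters were found in 6 of 21 promoters of the type 2 list (28.6%) and 4 of 11 of the airway secretory list (36.4%). They were found in 3 of 18 of the type 1 list (16.7%) and in 1992 of 13966 promoters of all protein-coding genes tested (14.3%). Promoters of protein-coding genes called higher held them in 14.5% and of those called lower in 14.8%. TGTTTAC, a forkhead motif that FOXA factors bind, was found in 1 of 21 type 2 promoters and in 2.38% of all. A match is a description of the letters and not a mapped site.

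Alveolar type 1 genes rose as well: 13 of 18 were called higher and 1 lower, with a median log2 fold change of 2.68, and 2 were lower without E12.5 replicate 2 or E15.5 replicate 3. *Ager*, the receptor for advanced glycation end products and an abundant protein of type 1 cells, measured 28.1, 26.8, 23.2 and 20.6 TPM at E12.5 and 136, 172, 345 and 101 TPM at E15.5 (log2 fold change 2.89 ± 0.35, adjusted p = 8.1e-05). *Hopx*, a homeodomain cofactor of type 1 and of bipotent alveolar cells, rose from 2.1 ± 1.06 to 65.4 ± 61.5 TPM (log2 fold change 4.96 ± 0.69, adjusted p = 2.0e-04). *Pdpn*, the membrane glycoprotein podoplanin, rose from 15.3 ± 0.406 to 50.5 ± 9.51 TPM (log2 fold change 1.68 ± 0.13, adjusted p = 6.2e-06). *Cldn18*, a tight junction claudin, rose from 22.1 ± 5.73 to 219.5 ± 50.04 TPM (log2 fold change 3.29 ± 0.20, adjusted p = 1.6e-06). These rises came at a stage when no alveoli are present. Without E15.5 replicate 3 the log2 fold change of *Hopx* was 4.08. The member that fell was *Aqp5*, a water channel of mature type 1 cells, which was low at both stages, with 1.56, 0.694, 2.58 and 2.29 and 0.615, 0.831, 1.24 and 0.448 TPM and overlapping libraries (log2 fold change -1.19 ± 0.41, adjusted p = 0.035), and its call was lost without any 1 of E12.5 replicates 1, 3 and 4 or E15.5 replicates 1, 2 and 4 (log2 fold change -1.24 to -0.97).

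Genes of airway secretory cells rose. Of 11 tested, 10 were called higher and 0 lower, with a median of 5.65, or 5.52 with *Scgb1a1* at its lower bound, and 4.70 without E15.5 replicate 3. *Scgb3a2*, a secretoglobin that marks early club cells, had 0.375, 0.342, 1.5 and 0.157 TPM at E12.5 and 77.5, 161, 332 and 61.2 TPM at E15.5 (log2 fold change 8.03 ± 0.80, adjusted p = 2.5e-05). Its log2 fold change was 7.38 without E15.5 replicate 3 and 8.91 without E12.5 replicate 3. *Scgb1a1*, the main secretoglobin of mature club cells, had no count in any E12.5 library and 161 counts in the E15.5 libraries together, or 1.41, 6.51, 28.1 and 2.17 TPM, which was at least 46.0-fold higher when 3 counts are taken as the limit over the E12.5 group. It was at least 17.9-fold higher with the 49 counts left without E15.5 replicate 3. *Cyp2f2*, the club cell cytochrome P450, had 3 counts at E12.5 and 1575 at E15.5, a ratio per library size of 450.4 (95% counting interval 153.8 to 2186), or of 989 without E12.5 replicate 1. Counting intervals and limits cover counting error only. *Upk3a*, a uroplakin of secretory cells near neuroendocrine clusters, rose from 0.398 ± 0.107 to 7.02 ± 4.98 TPM (log2 fold change 4.04 ± 0.60, adjusted p = 3.2e-04). The member not called was *Sox2*, the transcription factor of the airway stalks, with 19.8 ± 3.38 TPM at E12.5 and 25.5 ± 4.25 TPM at E15.5 (log2 fold change 0.34 ± 0.14, adjusted p = 0.071).

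In ciliated cell genes, 13 of 19 were called higher and 0 lower, with a median of 2.61. *Foxj1*, the transcription factor of motile cilia, measured 1.72, 1.53, 1.81 and 0.949 TPM at E12.5 and 28.6, 47.2, 70.8 and 12.3 TPM at E15.5 (log2 fold change 4.67 ± 0.53, adjusted p = 5.5e-05). Upstream of it in the known order of multiciliated cell formation, *Mcidas* went from 0.367 ± 0.0555 to 13.8 ± 6.2 TPM (log2 fold change 5.15 ± 0.41, adjusted p = 6.3e-06) and *Gmnc* from 0.0434 ± 0.0497 to 2.14 ± 0.233 TPM (log2 fold change 5.58 ± 0.43, adjusted p = 5.0e-06). *Deup1*, which builds the organelle that multiplies basal bodies, rose from 0.334 ± 0.063 to 14.1 ± 11.6 TPM (log2 fold change 5.36 ± 0.72, adjusted p = 1.6e-04). The dynein arm gene *Dnai1* reached only 1.84 ± 1.15 TPM (log2 fold change 1.55 ± 0.43, adjusted p = 0.012), and *Dnah5*, a dynein heavy chain, was under the TPM minimum with 3 counts at E12.5 and 395 at E15.5. In 18 of the 19 genes E15.5 replicate 3 was the highest E15.5 library, and without it 12 were called higher and 1 lower, with a median of 1.94 and a log2 fold change of 4.74 for *Deup1*. For *Gmnc* the value was 6.54 without E12.5 replicate 3.

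Neuroendocrine and basal lists did not move one way. Of 9 neuroendocrine genes, 1 was called higher and 2 lower, with a median of -0.14. *Grp*, gastrin-releasing peptide, rose from 0.519 ± 0.0707 to 1.47 ± 0.349 TPM (log2 fold change 1.44 ± 0.29, adjusted p = 0.0022). *Calca*, calcitonin gene-related peptide, fell from 2.18 ± 0.616 to 0.619 ± 0.283 TPM (log2 fold change -1.85 ± 0.36, adjusted p = 0.0019). *Ddc*, which makes amines, fell from 14.5 ± 2.63 to 7.83 ± 0.932 TPM (log2 fold change -0.93 ± 0.15, adjusted p = 5.0e-04). Of 7 basal cell genes, 2 rose and 4 fell, with a median of -0.88. The keratin gene *Krt15* rose from 2.04 ± 0.632 to 18.6 ± 12.3 TPM (log2 fold change 3.16 ± 0.43, adjusted p = 1.9e-04). *Krt14*, another keratin, fell from 5.003 ± 1.02 to 0.361 ± 0.101 TPM (log2 fold change -3.82 ± 0.27, adjusted p = 3.2e-06). The defining basal genes *Trp63* and *Krt5* were under the TPM minimum and not tested.

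Distal tip progenitor genes were divided. Of 14, 5 rose and 3 fell, with a median of 0.30, and without E12.5 replicate 3 or E15.5 replicate 3 those called higher numbered 3. *Sox9*, the transcription factor of the tips, had 86.8, 83.1, 74.4 and 82.2 TPM at E12.5 and 85.0, 83.7, 80.5 and 94.6 TPM at E15.5, with overlapping libraries and a log2 fold change of 0.04 ± 0.07 (adjusted p = 0.69). *Id2*, which marks the same cells, rose from 148 ± 16.7 to 233 ± 19.3 TPM (log2 fold change 0.62 ± 0.09, adjusted p = 2.6e-04). *Shh*, the hedgehog ligand that the epithelium sends to the mesenchyme, rose from 39.1 ± 4.81 to 81.6 ± 11.03 TPM (log2 fold change 1.03 ± 0.11, adjusted p = 3.1e-05). *Mycn*, a growth regulator of the tips, fell from 116 ± 10.03 to 69.5 ± 12.3 TPM (log2 fold change -0.77 ± 0.12, adjusted p = 4.0e-04). The Wnt ligand *Wnt7b* fell from 112 ± 10.1 to 69.1 ± 8.27 TPM (log2 fold change -0.72 ± 0.09, adjusted p = 8.8e-05). *Etv4* and *Etv5*, which respond to FGF in the tips, were not called, with log2 fold changes of -0.51 ± 0.15 and 0.51 ± 0.11. The rise of *Id2* lay close to the 1.5-fold minimum and fell below it without E12.5 replicate 3, E12.5 replicate 4 or E15.5 replicate 3 (0.58, 0.58 and 0.57), and *Etv4* was called without E15.5 replicate 1 (-0.59).

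Of 38 transcription factors with a known part in lung development, 18 rose and 3 fell, with a median of 0.65. *Nkx2-1* went from 181, 192, 214 and 196 TPM to 460.0, 470.4, 564 and 403 TPM (log2 fold change 1.24 ± 0.09, adjusted p = 4.4e-06), a rise shared by all E15.5 libraries. *Cebpa*, which acts in alveolar epithelial maturation, rose from 9.47 ± 2.19 to 67.4 ± 34.0 TPM (log2 fold change 2.81 ± 0.32, adjusted p = 5.4e-05). *Elf5*, an epithelial ETS factor, rose from 1.17 ± 0.249 to 23.4 ± 12.3 TPM (log2 fold change 4.28 ± 0.37, adjusted p = 9.7e-06). *Klf5* rose from 3.14 ± 0.841 to 36.3 ± 17.9 TPM (log2 fold change 3.51 ± 0.34, adjusted p = 1.9e-05). *Foxa2*, which acts together with NKX2-1 in the epithelium, showed a smaller rise, from 62.4 ± 3.89 to 106 ± 8.4 TPM (log2 fold change 0.73 ± 0.07, adjusted p = 1.8e-05). Those that fell were *Osr1*, from 170.0 ± 38.3 to 26.3 ± 5.41 TPM (log2 fold change -2.73 ± 0.19, adjusted p = 2.9e-06), *Sox11*, from 133 ± 4.65 to 46.5 ± 8.79 TPM (log2 fold change -1.55 ± 0.12, adjusted p = 4.2e-06), and *Foxp4*, from 342 ± 32.6 to 182 ± 17.7 TPM (log2 fold change -0.94 ± 0.09, adjusted p = 1.9e-05). *Osr1* acts in foregut mesoderm and *Sox11* in many immature tissues. The mesenchymal T-box genes *Tbx4* and *Tbx5* and the forkhead gene *Foxf1* were not called, with log2 fold changes of 0.30 ± 0.06, -0.46 ± 0.06 and -0.50 ± 0.10.

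In the mesenchyme, smooth muscle genes rose. Of 17, 10 were called higher and 0 lower, with a median of 0.69. *Acta2*, smooth muscle actin, had 359, 311, 460.5 and 458 TPM at E12.5 and 1095, 893, 835 and 1078 TPM at E15.5 (log2 fold change 1.26 ± 0.13, adjusted p = 2.6e-05). *Myh11*, the smooth muscle myosin heavy chain, rose from 59.0 ± 18.3 to 145 ± 26.1 TPM (log2 fold change 1.27 ± 0.20, adjusted p = 4.1e-04). *Myocd*, the coactivator of the contractile programme, was not called, with 21.4 ± 3.03 and 14.8 ± 4.95 TPM (log2 fold change -0.56 ± 0.21, adjusted p = 0.044), but was called lower with *Xist* as a covariate (-0.76, adjusted p = 0.0047 in edgeR) and without E12.5 replicate 1 (-0.63), E15.5 replicate 1 (-0.69) or E15.5 replicate 4 (-0.70). Of 13 pericyte and vascular mural genes, 7 rose and 0 fell, with a median of 1.68. *Higd1b* rose from 0.171 ± 0.0459 to 15.6 ± 12.2 TPM (log2 fold change 6.32 ± 0.74, adjusted p = 7.1e-05). The potassium channel subunit *Abcc9* rose from 0.59 ± 0.287 to 18.3 ± 4.27 TPM (log2 fold change 4.90 ± 0.28, adjusted p = 1.1e-06), while *Pdgfrb*, the receptor by which pericytes are recruited, stood at 176 ± 18.2 and 162 ± 12.2 TPM (log2 fold change -0.15 ± 0.07, adjusted p = 0.1). Without E15.5 replicate 3 *Higd1b* had a log2 fold change of 5.67.

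Fibroblast genes were called higher in 18 of 22 cases and lower in 0, with a median of 1.45. *Adh1*, an alcohol dehydrogenase that also oxidises retinol, measured 46.8, 34.6, 71.4 and 71.1 TPM at E12.5 and 969, 1012, 891 and 818 TPM at E15.5 (log2 fold change 4.02 ± 0.21, adjusted p = 7.9e-07), which made it one of the 10 genes with the largest gain in TPM. *G0s2*, an inhibitor of triglyceride lipase, rose from 19.4 ± 2.91 to 189 ± 134 TPM (log2 fold change 3.25 ± 0.42, adjusted p = 1.4e-04). *Plin2*, which coats lipid droplets, rose from 57.8 ± 3.1 to 91.1 ± 11.6 TPM (log2 fold change 0.62 ± 0.08, adjusted p = 1.9e-04). *Tcf21*, a transcription factor of the lung mesenchyme, rose from 123 ± 20.6 to 235 ± 70.8 TPM (log2 fold change 0.91 ± 0.19, adjusted p = 0.0025). *Pdgfra*, the receptor on fibroblast progenitors, was not called (log2 fold change -0.57 ± 0.13, adjusted p = 0.0041), although 5 of 8 fits without 1 library (E12.5 replicates 2, 3 and 4, E15.5 replicates 3 and 4) placed it just past the 1.5-fold minimum, between -0.65 and -0.60. Neither was the mesenchymal ligand *Wnt2* called (log2 fold change -0.12 ± 0.09, adjusted p = 0.3). Among the 15 protein-coding genes with the largest rise were *Dpt*, dermatopontin, at 0.111 ± 0.14 and 21.8 ± 19.8 TPM (log2 fold change 7.38 ± 0.90, adjusted p = 8.7e-05), *Clec3b*, tetranectin, at 0.976 ± 0.242 and 127 ± 35.5 TPM (log2 fold change 6.96 ± 0.27, adjusted p = 3.8e-07), and the chemokine *Ccl11* at 0.894 ± 0.697 and 145 ± 19.9 TPM (log2 fold change 7.39 ± 0.30, adjusted p = 3.8e-07), which are made by connective tissue cells. Without E15.5 replicate 3 the log2 fold change was 2.63 for *G0s2*, 6.53 for *Dpt* and 0.53 for *Plin2*, which then missed the 1.5-fold minimum, and without E12.5 replicate 2 it was 8.56 for *Dpt*.

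Extracellular matrix genes rose widely. Of 26 collagens, 18 rose and 1 fell, of 19 elastic fibre genes 10 and 1, and of 22 laminin and other basement membrane genes 14 and 2, with medians of 1.02, 0.84 and 0.96. *Eln*, tropoelastin, had 43.9, 31.1, 64.7 and 50.4 TPM at E12.5 and 446, 413, 767 and 397 TPM at E15.5 (log2 fold change 3.38 ± 0.26, adjusted p = 5.5e-06). *Fbln5*, which places elastin on microfibrils, rose from 5.72 ± 1.05 to 47.9 ± 13.1 TPM (log2 fold change 3.03 ± 0.19, adjusted p = 1.9e-06). *Lox*, which cross-links elastin and collagen, rose from 138 ± 19.99 to 436 ± 80.4 TPM (log2 fold change 1.63 ± 0.14, adjusted p = 8.2e-06). The microfibril gene *Fbn2* was not called (log2 fold change 0.26 ± 0.07, adjusted p = 0.009), and *Ltbp1*, a binding protein of latent TGF-beta, fell from 56.6 ± 7.01 to 28.4 ± 5.15 TPM (log2 fold change -1.04 ± 0.13, adjusted p = 1.4e-04).

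Among collagens, *Col6a3* rose from 11.4 ± 4.36 to 232 ± 51.5 TPM (log2 fold change 4.33 ± 0.29, adjusted p = 2.4e-06). *Col4a1*, a chain of most basement membranes, rose from 308 ± 37.9 to 1002 ± 93.9 TPM (log2 fold change 1.67 ± 0.09, adjusted p = 1.0e-06). *Col4a3*, a chain of the alveolar and glomerular basement membranes, rose from 0.75 ± 0.299 to 9.38 ± 2.22 TPM (log2 fold change 3.63 ± 0.27, adjusted p = 4.3e-06). *Col26a1* was the collagen that fell, from 52.3 ± 5.23 to 13.3 ± 3.5 TPM (log2 fold change -2.01 ± 0.17, adjusted p = 8.2e-06). *Lama1*, the laminin chain of early embryonic basement membranes, fell from 23.6 ± 0.527 to 13.1 ± 3.11 TPM (log2 fold change -0.88 ± 0.14, adjusted p = 5.7e-04). *Lama5*, which replaces it in mature ones, rose from 106 ± 13.01 to 229.6 ± 61.2 TPM (log2 fold change 1.08 ± 0.16, adjusted p = 3.1e-04). *Mfap4*, a microfibril-associated protein, rose from 347 ± 51.8 to 1695 ± 592 TPM (log2 fold change 2.25 ± 0.22, adjusted p = 2.1e-05).

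Endothelial genes rose together. Of 29 blood endothelial genes, 22 rose and 0 fell, with a median of 0.90 and a lowest log2 fold change of -0.05. *Pecam1*, an adhesion molecule of endothelial junctions, measured 58.5, 45.7, 68.0 and 74.4 TPM at E12.5 and 150.3, 162, 200.1 and 146 TPM at E15.5 (log2 fold change 1.39 ± 0.14, adjusted p = 2.7e-05). *Cdh5*, VE-cadherin, rose from 161 ± 15.51 to 383 ± 29.3 TPM (log2 fold change 1.22 ± 0.07, adjusted p = 1.5e-06). *Gpihbp1*, which holds lipoprotein lipase on capillaries, rose from 1.62 ± 0.563 to 11.2 ± 3.4 TPM (log2 fold change 2.75 ± 0.29, adjusted p = 3.4e-05). The VEGF receptor *Flt1* (log2 fold change -0.05 ± 0.13, adjusted p = 0.77) and the endothelin receptor *Ednrb* (log2 fold change 0.19 ± 0.14, adjusted p = 0.29) were not called. The capillary gene *Car4* was under the TPM minimum. Of 12 lymphatic genes, 5 rose and 3 fell, with a median of 0.19. *Lyve1* rose from 30.3 ± 10.04 to 100.4 ± 20.9 TPM (log2 fold change 1.71 ± 0.22, adjusted p = 1.4e-04). The chemokine *Ccl21a* rose from 5.51 ± 1.6 to 26.2 ± 2.41 TPM (log2 fold change 2.23 ± 0.19, adjusted p = 8.7e-06). *Prox1*, the transcription factor that sets lymphatic identity, fell from 5.35 ± 0.183 to 3.25 ± 0.524 TPM (log2 fold change -0.75 ± 0.12, adjusted p = 4.9e-04). Genes of VEGF and angiopoietin signalling rose in 6 of 15 cases and fell in 1, with a median of -0.01. The steepest was *Vegfd*, a ligand of the lymphatic receptor, with 4.61, 3.71, 8.85 and 6.32 TPM at E12.5 and 123, 134, 142 and 119 TPM at E15.5 (log2 fold change 4.45 ± 0.21, adjusted p = 5.1e-07). *Vegfa*, the main ligand for blood vessels, was at 219 ± 67.2 and 222 ± 39.9 TPM (log2 fold change -0.01 ± 0.19, adjusted p = 0.96).

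Globin transcripts turned over from embryonic to adult types. Primitive red cells from the yolk sac carry the embryonic globins, and definitive red cells from the fetal liver carry the adult ones. All 3 embryonic globin genes fell and all 4 adult ones rose. *Hbb-y* (chr7:103500956-103502423), embryonic epsilon globin, had 11746, 22819, 13201 and 20028 TPM at E12.5 and 806, 392, 97.3 and 1602 TPM at E15.5 (log2 fold change -4.59 ± 0.72, adjusted p = 4.5e-04). Without E15.5 replicate 4, whose level was the highest of that stage, the log2 fold change of *Hbb-y* was -5.33. *Hbb-bh1* fell from 2711 ± 1105 to 15.9 ± 9.43 TPM (log2 fold change -7.46 ± 0.47, adjusted p = 1.8e-06). *Hba-x* fell from 6365 ± 2303 to 139 ± 89.0 TPM (log2 fold change -5.56 ± 0.55, adjusted p = 2.4e-05). In the other direction, *Hbb-bs* went from 349, 583, 559.9 and 646 TPM to 6430.0, 6804, 10952 and 7976 TPM (log2 fold change 3.88 ± 0.23, adjusted p = 1.3e-06), and *Hba-a1* rose from 1849.5 ± 472 to 3765 ± 819 TPM (log2 fold change 0.99 ± 0.20, adjusted p = 0.0021). In the fit of all 16 lung libraries *Hba-a1* was not called (0.998, adjusted p = 0.134 in edgeR), and in *Hoxa5*-/- lung 2 of 4 adult globin genes were called higher. The adult genes come in near-identical pairs, *Hbb-bs* with *Hbb-bt* and *Hba-a1* with *Hba-a2*, between which reads may be split, so their separate levels are uncertain. Summed over embryonic and adult genes, E12.5 libraries held 19037, 36203, 18794 and 30061 TPM of embryonic globins, against 995, 510.0, 139 and 1874 TPM at E15.5, and 2404, 4194, 3080.2 and 4138 TPM of adult globins, against 13209, 13359.9, 21089 and 16144 TPM. Of 15 other erythroid genes, 11 fell and 0 rose, with a median of -2.30. *Slc4a1*, the band 3 anion exchanger of the red cell membrane, fell from 105 ± 33.3 to 15.7 ± 5.1 TPM (log2 fold change -2.79 ± 0.27, adjusted p = 2.0e-05). The Rh-associated glycoprotein *Rhag* fell from 10.8 ± 2.41 to 0.915 ± 0.255 TPM (log2 fold change -3.60 ± 0.25, adjusted p = 2.8e-06). *Alas2*, which starts heme synthesis in red cells, was not called (log2 fold change 0.19 ± 0.21, adjusted p = 0.49). Embryonic globins were thus outnumbered by adult ones at the later stage. The share of red cells in each library was not recorded, and its part in these results was not tested.

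**Figure D2:**
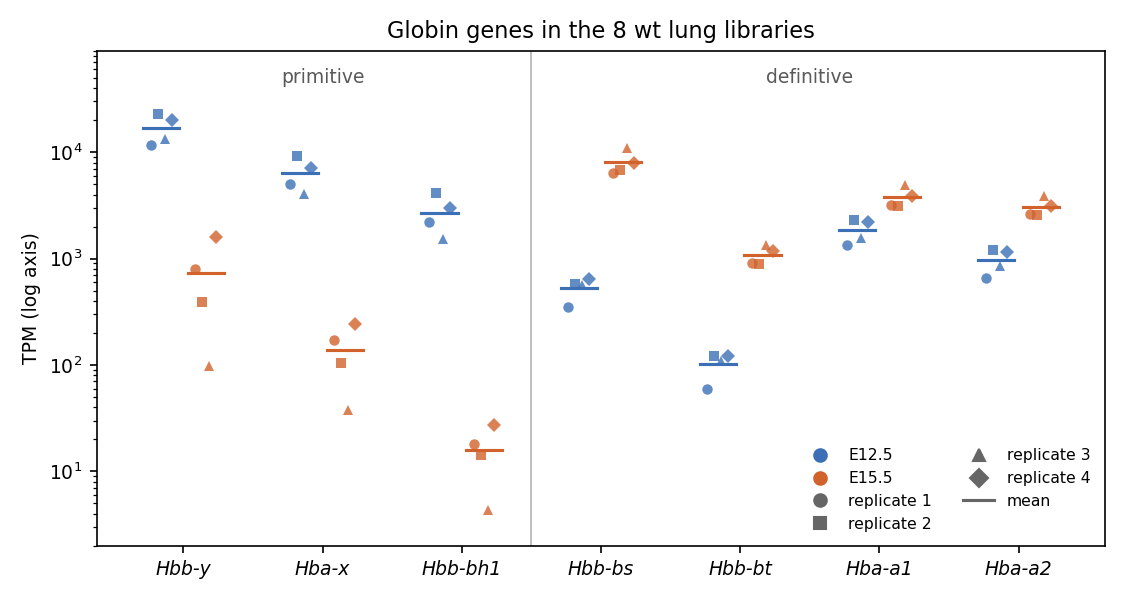
TPM (log axis) of the embryonic (primitive) and adult (definitive) globin genes in each wt lung library, with 1 symbol per replicate and a bar at the mean. The 3 embryonic genes lie lower and the 4 adult genes higher at E15.5, and E15.5 replicate 4 keeps the most *Hbb-y*, with 1602 TPM.

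White blood cell genes shifted too. Of 18 macrophage genes, 9 rose and 0 fell, with a median of 0.55, and without E15.5 replicate 3 those called higher numbered 7. *Lyz2*, lysozyme, measured 9.94, 11.2, 8.5 and 10.1 TPM at E12.5 and 69.0, 88.5, 147 and 52.3 TPM at E15.5 (log2 fold change 3.12 ± 0.30, adjusted p = 2.0e-05), and is also made by type 2 cells. *C1qa*, of the complement pathway, rose from 20.6 ± 1.29 to 40.2 ± 5.68 TPM (log2 fold change 0.93 ± 0.12, adjusted p = 1.3e-04). Neither *Csf1r* (log2 fold change 0.38 ± 0.07, adjusted p = 0.0011) nor *Cd68* (log2 fold change 0.02 ± 0.09, adjusted p = 0.9), which mark macrophages in general, was called. Among 12 genes of other leukocytes, 6 rose and 1 fell, with a median of 0.88. *S100a8*, a neutrophil calcium-binding protein, rose from 0.301 ± 0.244 to 4.65 ± 4.04 TPM (log2 fold change 3.83 ± 0.82, adjusted p = 0.0031). *Mpo*, myeloperoxidase of immature granulocytes, fell from 1.92 ± 1.22 to 0.347 ± 0.22 TPM (log2 fold change -2.48 ± 0.57, adjusted p = 0.0049). The log2 fold change of *S100a8* was 3.13 without E15.5 replicate 3. *Cd3e*, the T cell marker, had 0 counts at E12.5 and 3 at E15.5. Of 18 host defence genes, 14 rose and 1 fell, with a median of 1.31. *Cd74*, the invariant chain of MHC class II, rose from 2.74 ± 0.307 to 35 ± 12.54 TPM (log2 fold change 3.64 ± 0.26, adjusted p = 3.4e-06), and *H2-Aa*, an MHC class II chain, had 3 counts at E12.5 and 584 at E15.5, a ratio of 167 (95% counting interval 56.9 to 812). The member that fell was *Ifitm1*, an interferon-induced membrane protein, from 62.2 ± 9.02 to 23.3 ± 4.4 TPM (log2 fold change -1.45 ± 0.15, adjusted p = 3.4e-05).

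Mesothelial genes mostly fell. Of 13, 7 fell and 4 rose, with a median of -0.89. *Wt1*, the transcription factor of the mesothelium, measured 20.8, 18.9, 17.9 and 22.9 TPM at E12.5 and 5.39, 4.43, 4.59 and 5.62 TPM at E15.5 (log2 fold change -2.04 ± 0.11, adjusted p = 7.8e-07). *Aldh1a2*, which makes retinoic acid in mesothelium and nearby mesenchyme, fell from 237 ± 16.2 to 52.9 ± 8.1 TPM (log2 fold change -2.20 ± 0.11, adjusted p = 6.2e-07). The uroplakin *Upk3b* fell from 77.8 ± 4.26 to 43.2 ± 0.798 TPM (log2 fold change -0.89 ± 0.06, adjusted p = 3.3e-06). *Msln*, mesothelin, went the other way, from 0.236 ± 0.0512 to 9.36 ± 10.01 TPM (log2 fold change 5.22 ± 0.80, adjusted p = 3.9e-04), with a log2 fold change of 4.15 without E15.5 replicate 3. *Fgf9*, the growth factor that mesothelium and epithelium send to the mesenchyme, was not called (log2 fold change -0.23 ± 0.15, adjusted p = 0.24).

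Genes of neural crest, glia and neurons fell in 11 of 18 cases and rose in 1, with a median of -1.88. The libraries of the stages did not overlap in 9 of the 18, against 48.9% of all genes. Summed over the whole list, untested members included, the levels overlapped. They were 208.5, 122.8, 107.9 and 82.9 TPM at E12.5 and 111.8, 106.1, 130 and 119 TPM at E15.5. *Sox10*, which marks neural crest and glia, had 23.1, 13.3, 8.02 and 5.26 TPM in E12.5 replicates 1 to 4 and 1.96, 1.08, 1.1 and 1.95 TPM at E15.5 (log2 fold change -3.08 ± 0.46, adjusted p = 3.2e-04). The E12.5 libraries varied in these genes: replicate 1 was the highest in 16 of 18 and replicate 4 the lowest in 15. Several other genes with a pronounced fall were likewise highest in E12.5 replicate 1. *Nkx6-1*, a homeobox gene of stomach, pancreas and nervous system, had 20.5, 18.9, 6.79 and 6.65 TPM and 0.214, 0.15, 0.0761 and 0.165 TPM (log2 fold change -6.42 ± 0.56, adjusted p = 1.2e-05). *Barx1*, of stomach and oesophageal mesenchyme, had 26.4, 9.82, 5.27 and 4.35 TPM and 0.602, 1.21, 1.37 and 1.02 TPM (log2 fold change -3.52 ± 0.61, adjusted p = 9.3e-04), *Gcg*, proglucagon, had 35.5, 15.4, 2.82 and 3.61 TPM and 0.0563, 0.0629, 0.0799 and 0.173 TPM (log2 fold change -7.28 ± 1.13, adjusted p = 4.5e-04), and *Isl1*, a LIM homeobox gene of foregut mesenchyme and neurons, had 26.99, 17.3, 9.87 and 10.6 TPM and 0.914, 1.02, 0.422 and 1.34 TPM (log2 fold change -4.18 ± 0.41, adjusted p = 2.1e-05). In wt trachea at E15.5 the means were 31.6 TPM for *Sox10*, 12.8 TPM for *Nkx6-1*, 56.8 TPM for *Barx1*, 32.7 TPM for *Isl1* and 0.0954 TPM for *Gcg*, so that *Gcg* alone of the 5 was near 0 there. Without E12.5 replicate 1, 9 genes of the neural crest list fell and 2 rose, with a median of -1.13, and the log2 fold changes were -2.69 for *Barx1* and -6.32 for *Gcg*. How much tissue other than lung each E12.5 library held, and its part in these falls, was not tested.

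Muscle markers of neighbouring tissues were low against trachea and diaphragm. Heart muscle genes rose in 7 of 9 cases and fell in 1, with summed levels of 62.6, 58.2, 59.2 and 60.4 TPM at E12.5 and 240.5, 258, 498 and 243 TPM at E15.5, against 7953 TPM in trachea. *Myh6*, atrial myosin, rose from 0.276 ± 0.215 to 20.3 ± 14.1 TPM (log2 fold change 6.10 ± 0.59, adjusted p = 2.1e-05). Its log2 fold change was 6.78 without E12.5 replicate 1 and 5.51 without E15.5 replicate 3. E15.5 replicate 3 was the highest E15.5 library in 9 of 9 heart muscle genes, and without it their median was 1.05 in place of 1.59. Lung veins of the mouse are known to carry cardiac muscle. Whether these transcripts came from there or from heart tissue was not tested. Of 7 skeletal muscle genes, 1 rose and 1 fell, and the whole list, untested members included, summed to 27.8 to 40.7 TPM at E12.5 and 30.5 to 53.8 TPM at E15.5, against 35065 TPM in diaphragm. Of 6 hepatocyte genes, 1 rose, *Alb*, with 23.4, 2.37, 4.38 and 1.88 TPM at E15.5 (log2 fold change 4.65 ± 1.08, adjusted p = 0.0049), and E15.5 replicate 1 was the highest E15.5 library in 6 of 6. For *Alb* the log2 fold change was 3.17 without it and 6.49 without E12.5 replicate 3. Of 6 oesophagus and stomach genes, 2 rose and 3 fell, the latter being *Nkx6-1*, *Barx1* and *Pitx1* (log2 fold change -3.22 ± 0.44, adjusted p = 2.0e-04), and the former *Cldn18* and *Krt4*, a keratin of stratified epithelium with 0 counts at E12.5 and 205 at E15.5, at least 58.6-fold higher. Of 13 cartilage genes, 4 rose and 3 fell, among them *Col2a1*, the main cartilage collagen, from 73.3 ± 6.31 to 28.7 ± 11.1 TPM (log2 fold change -1.39 ± 0.24, adjusted p = 8.4e-04).

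**Figure D3:**
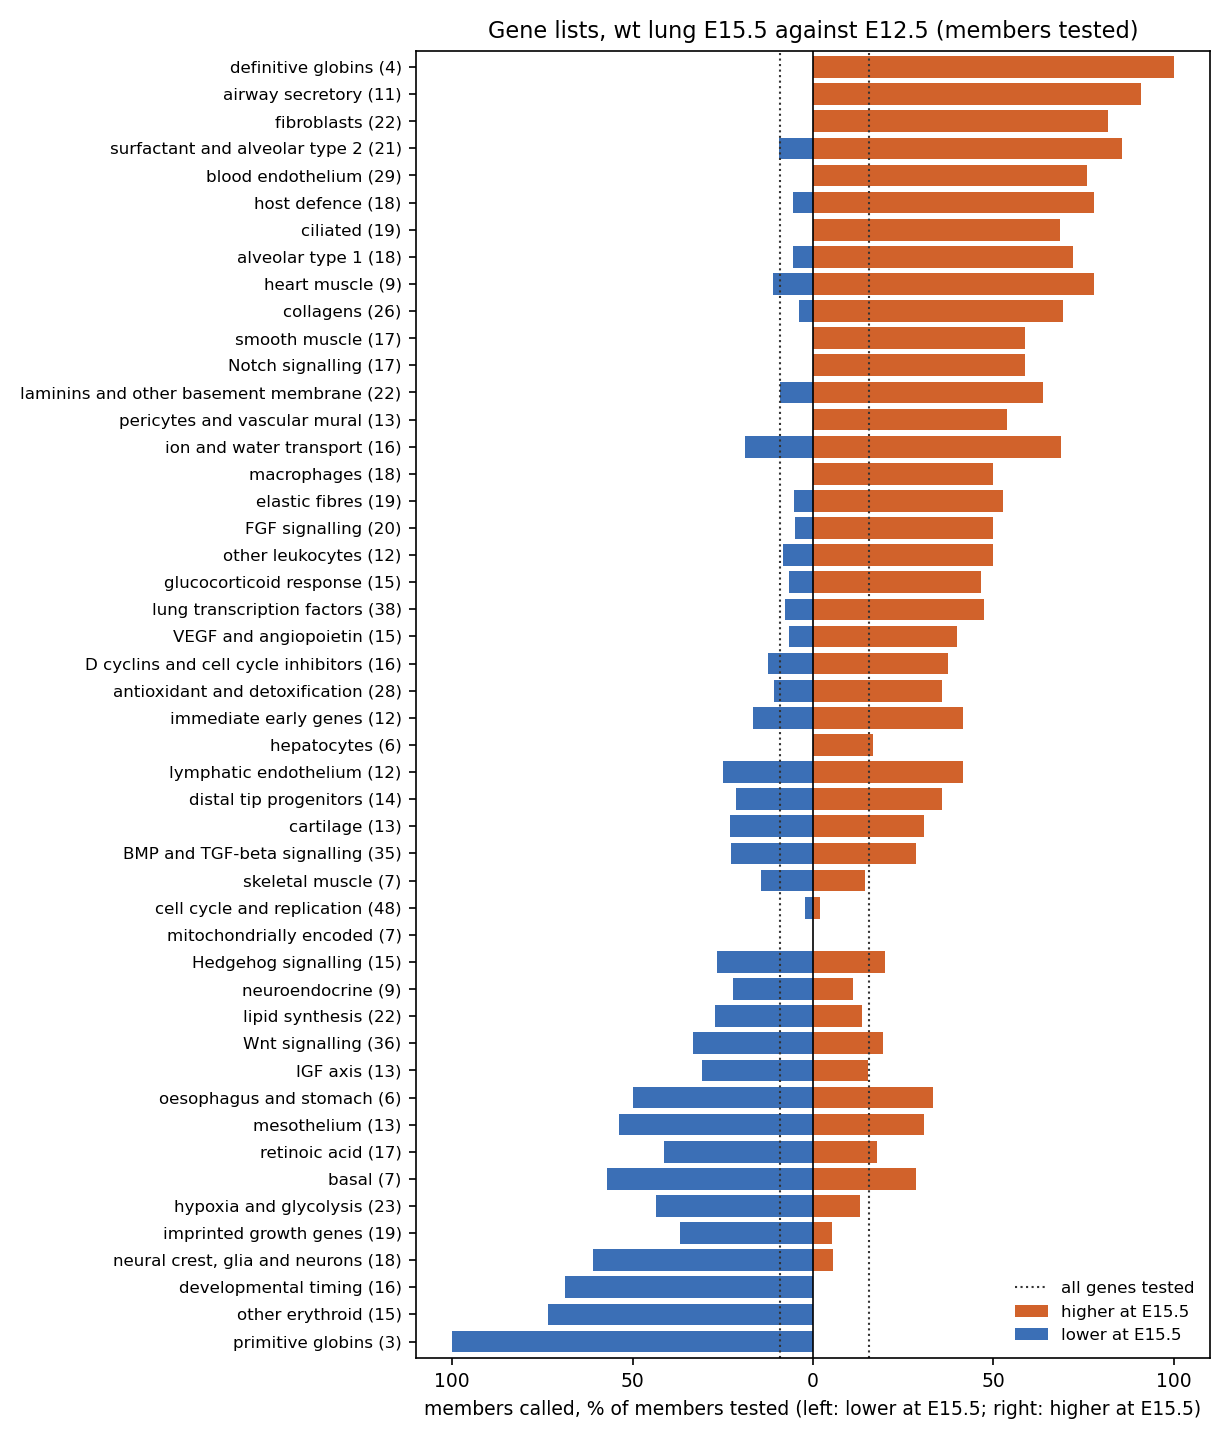
Share of the tested members of each of the 48 gene lists that was called higher (right, orange) or lower (left, blue) at E15.5, with the number tested in brackets and dotted lines at 15.46% and 9.04% for all genes. Adult globins and airway secretory genes stand at the top, embryonic globins, other erythroid and developmental timing genes at the bottom, and the cell cycle list close to 0.

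Developmental timing genes fell in 11 of 16 cases and rose in 0, with a median of -1.0, and every log2 fold change of the list was below 0. This list holds genes of early embryonic growth whose products decline as tissues mature. As that decline was known when the list was made, the fall of its members is not independent evidence of it. *Hmga2* (chr10:120197180-120312374), a chromatin protein of growing embryonic tissue, measured 404, 459.5, 358 and 429.6 TPM at E12.5 and 40.8, 35.9, 22.9 and 45.2 TPM at E15.5 (log2 fold change -3.55 ± 0.19, adjusted p = 9.3e-07). *Lin28b*, which blocks the maturation of let-7 microRNAs, fell from 7.03 ± 0.737 to 0.873 ± 0.147 TPM (log2 fold change -3.04 ± 0.15, adjusted p = 5.6e-07). Its relative *Lin28a* fell from 1.12 ± 0.354 to 0.0756 ± 0.0739 TPM (log2 fold change -3.75 ± 0.52, adjusted p = 2.1e-04), with a log2 fold change of -4.37 without E15.5 replicate 2. *Igf2bp1*, an mRNA-binding protein of embryonic growth, fell from 119 ± 5.12 to 37.9 ± 5.53 TPM (log2 fold change -1.68 ± 0.09, adjusted p = 9.9e-07). *Igf2bp3* fell from 59.6 ± 1.9 to 29.6 ± 2.07 TPM (log2 fold change -1.05 ± 0.06, adjusted p = 1.3e-06). Several of these genes are known targets of let-7, a microRNA family that accumulates late in development, so the sequences of that family and of sites in their 3′ UTRs are shown. No microRNA was measured here. The mature sequences below (RefSeq) are written 5′ to 3′, and capitals mark the seed, bases 2 to 8, which all 8 let-7 5p sequences of the table share.
mmu-let-7a-5p: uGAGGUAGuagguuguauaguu
mmu-let-7c-5p: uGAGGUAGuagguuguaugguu
mmu-let-7g-5p: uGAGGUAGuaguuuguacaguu
Sites in the transcripts (GRCm39, RNA strand written as DNA) follow, with capitals on CTACCTC, the complement of that seed.
Hmga2 site 1 (chr10:120200130-120200153, - strand): gcgccgacattcaatttCTACCTC
Lin28b site 1 (chr10:45257119-45257142, - strand): tcacccgggcgggaagtCTACCTC
Igf2bp1 site 1 (chr11:95852605-95852628, - strand): gtgctgtgcgaagtaaaCTACCTC
Lin28a site 1 (chr4:133732501-133732524, - strand): gtgcacagcctgttgaaCTACCTC
The letters CTACCTC stood in 10 of 16 3′ UTRs of the timing list (62.5%), with 31 sites or 5.89 per 10000 bases. Among all protein-coding genes tested they stood in 1264 of 13696 3′ UTRs (9.23%), with 0.734 per 10000 bases. As known targets were on the timing list, its share is not independent evidence. Over these protein-coding genes, 12.7% of those called lower and 8.83% of those called higher had a site. Genes with no site had a median log2 fold change of 0.00 and 8.53% were called lower, those with 1 site had a median of -0.07 and 11.4%, and the 155 with 2 or more had a median of -0.20 and 18.7%. UTRs with 2 or more sites were long, with a median of 3518 bases, and length was not separated from the number of sites.

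Cell cycle genes as a group stayed near 0. Of 48, 1 rose and 1 fell (4.17% called, against 24.5% of all genes), with a median of -0.12. *Top2a*, the topoisomerase of dividing cells, had 321, 323, 361 and 339.9 TPM at E12.5 and 319.5, 329.5, 304 and 353 TPM at E15.5 (log2 fold change -0.08 ± 0.06, adjusted p = 0.31), and *Pcna*, the sliding clamp of DNA polymerase, 123 ± 6.93 and 120.2 ± 9.8 TPM (log2 fold change -0.07 ± 0.07, adjusted p = 0.42). *Mki67*, the proliferation antigen Ki-67, had 256, 323, 262 and 102 TPM and 387, 386, 373 and 399 TPM, with E12.5 replicate 4 far below the other 3, and was not called (log2 fold change 0.67 ± 0.27, adjusted p = 0.065). It passed as higher without E12.5 replicate 2 (log2 fold change 0.88), by DESeq2 (0.67), with the replicate number as a block (0.78, adjusted p = 0.0458 in edgeR), with no filter (0.68) and in a fit of all 16 lung libraries (0.68). *Ccne1*, a cyclin of the G1 to S transition, fell from 118 ± 8.88 to 67.4 ± 11.7 TPM (log2 fold change -0.85 ± 0.11, adjusted p = 1.6e-04). *E2f2* rose from 18.6 ± 2.89 to 33.8 ± 6.89 TPM (log2 fold change 0.82 ± 0.15, adjusted p = 0.0014). Among 16 D cyclins and cell cycle inhibitors, 6 rose and 2 fell, with a median of 0.33, and 1 fell without E12.5 replicate 1 or 4 or E15.5 replicate 1 or 2. *Ccnd2* fell from 229 ± 16.7 to 122 ± 19.5 TPM (log2 fold change -0.94 ± 0.10, adjusted p = 4.4e-05), while the inhibitor genes *Cdkn2c* and *Cdkn1a* rose, from 9.06 ± 1.01 to 45.01 ± 6.58 TPM (log2 fold change 2.27 ± 0.12, adjusted p = 9.3e-07) and from 4.35 ± 0.329 to 9.29 ± 3.07 TPM (log2 fold change 1.05 ± 0.21, adjusted p = 0.0019).

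Of 19 imprinted growth genes, expressed from the copy of only the mother or the father, 7 fell and 1 rose, with a median of -0.33. *Peg10* fell from 277 ± 22.4 to 59.1 ± 19.9 TPM (log2 fold change -2.27 ± 0.22, adjusted p = 2.3e-05). *Igf2*, a fetal growth factor, fell from 267 ± 20.2 to 145 ± 11.6 TPM (log2 fold change -0.92 ± 0.08, adjusted p = 7.4e-06). *Dlk1*, a membrane protein of progenitor cells, was the member that rose, from 341 ± 59.5 to 637 ± 44.8 TPM (log2 fold change 0.87 ± 0.11, adjusted p = 1.2e-04). *H19*, the noncoding neighbour of *Igf2*, had 5435 ± 102 and 6099.8 ± 1189 TPM with overlapping libraries (log2 fold change 0.13 ± 0.12, adjusted p = 0.38). In the IGF axis 2 of 13 genes rose and 4 fell, with a median of 0.04. *Igfbp5*, a binding protein of IGFs, measured 1721, 1459, 1341 and 1278 TPM at E12.5 and 489.9, 496, 533 and 492 TPM at E15.5 (log2 fold change -1.56 ± 0.10, adjusted p = 1.8e-06), and *Igfbp7* rose from 6.49 ± 1.41 to 76.6 ± 30.9 TPM (log2 fold change 3.53 ± 0.28, adjusted p = 6.8e-06).

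FGF genes rose in 10 of 20 cases and fell in 1, with a median of 0.61. *Fgf10*, the mesenchymal ligand that drives branching, had 21.8, 21.5, 25.8 and 25.3 TPM at E12.5 and 37.3, 41.6, 49.6 and 42.8 TPM at E15.5 (log2 fold change 0.83 ± 0.09, adjusted p = 5.6e-05). The ligand with the largest rise was *Fgf1*, from 1.39 ± 0.526 to 47.9 ± 14.3 TPM (log2 fold change 5.10 ± 0.28, adjusted p = 1.0e-06), followed by *Fgf7*, from 1.14 ± 0.0799 to 8.71 ± 4.14 TPM (log2 fold change 2.89 ± 0.31, adjusted p = 3.8e-05). Of the receptors, *Fgfr4* rose from 16.8 ± 1.66 to 112 ± 19.7 TPM (log2 fold change 2.698 ± 0.12, adjusted p = 4.5e-07). *Fgfr2*, which receives FGF10 in the epithelium, was not called (log2 fold change 0.40 ± 0.11, adjusted p = 0.012). The feedback inhibitor *Spry2* rose from 36.1 ± 2.73 to 65.8 ± 4.55 TPM (log2 fold change 0.83 ± 0.07, adjusted p = 1.3e-05), and the target *Dusp6* was not called (log2 fold change 0.19 ± 0.09, adjusted p = 0.12). *Il17rd*, an inhibitor of FGF signalling, was the member that fell, from 22.6 ± 1.64 to 11.8 ± 0.646 TPM (log2 fold change -0.97 ± 0.07, adjusted p = 4.4e-06).

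Wnt genes went in both directions: 7 of 36 higher and 12 lower, with a median of -0.30. Among ligands and their agonists, *Wnt2b*, which with *Wnt2* specifies the lung, fell from 21.6 ± 2.16 to 5.11 ± 1.44 TPM (log2 fold change -2.12 ± 0.17, adjusted p = 7.0e-06). *Rspo2* fell from 59.7 ± 5.95 to 7.22 ± 2.81 TPM (log2 fold change -3.09 ± 0.25, adjusted p = 7.3e-06). *Wnt5a* rose from 9.81 ± 1.22 to 25.5 ± 3.28 TPM (log2 fold change 1.34 ± 0.11, adjusted p = 6.9e-06). Secreted inhibitors also parted: *Sfrp1* measured 151, 129.7, 140.1 and 145 TPM at E12.5 and 29.4, 23.04, 18.1 and 34.96 TPM at E15.5 (log2 fold change -2.46 ± 0.17, adjusted p = 2.7e-06), and *Wif1* rose, with 1.18 to 1.57 TPM at E12.5 and 9.81 to 16.7 TPM at E15.5 (log2 fold change 3.19 ± 0.20, adjusted p = 1.6e-06). Of the targets, *Lef1* fell from 28.1 ± 2.18 to 10.3 ± 3.06 TPM (log2 fold change -1.48 ± 0.19, adjusted p = 1.4e-04) and *Axin2* was not called (log2 fold change 0.25 ± 0.08, adjusted p = 0.025). In Hedgehog signalling 3 of 15 genes rose and 4 fell, with a median of -0.37. Beside the ligand *Shh*, the inhibitor *Hhip* rose from 38.7 ± 3.62 to 81.7 ± 7.21 TPM (log2 fold change 1.04 ± 0.08, adjusted p = 4.8e-06), while the receptor and target *Ptch1* (log2 fold change -0.07 ± 0.12, adjusted p = 0.64) and the effector *Gli1* (log2 fold change -0.37 ± 0.18, adjusted p = 0.11) were not called. *Gas1*, a co-receptor, fell from 97.1 ± 5.45 to 28.9 ± 2.56 TPM (log2 fold change -1.78 ± 0.08, adjusted p = 4.4e-07). *Gli3* fell from 84.7 ± 3.57 to 43.5 ± 6.25 TPM (log2 fold change -0.997 ± 0.09, adjusted p = 1.4e-05).

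BMP and TGF-beta genes numbered 10 higher and 8 lower of 35, with a median of 0.26. *Bmp4*, made by the tips, rose from 100.2 ± 5.02 to 158 ± 10.2 TPM (log2 fold change 0.62 ± 0.07, adjusted p = 4.0e-05), but missed the 1.5-fold minimum without E12.5 replicate 3 (0.57) or E15.5 replicate 3 (0.58). There was also a rise of the endothelial receptor *Acvrl1*, from 41.4 ± 6.25 to 142 ± 36.4 TPM (log2 fold change 1.75 ± 0.17, adjusted p = 2.0e-05). The antagonists *Grem1* and *Fst* fell, from 2.87 ± 0.496 to 0.859 ± 0.494 TPM (log2 fold change -1.77 ± 0.38, adjusted p = 0.0029) and from 3.56 ± 0.621 to 0.524 ± 0.0925 TPM (log2 fold change -2.79 ± 0.20, adjusted p = 3.8e-06). Of 17 Notch genes, 10 rose and 0 fell, with a median of 0.69. The receptor *Notch1* rose from 32.9 ± 2.8 to 53.7 ± 2.56 TPM (log2 fold change 0.67 ± 0.06, adjusted p = 1.1e-05). The target *Heyl* rose from 20.1 ± 1.33 to 64.2 ± 7.32 TPM (log2 fold change 1.64 ± 0.09, adjusted p = 8.9e-07), while the target *Hes1* was not called (log2 fold change 0.21 ± 0.06, adjusted p = 0.015).

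Retinoic acid genes fell in 7 of 17 cases and rose in 3, with a median of -0.48. *Stra6*, the receptor by which cells take up retinol, measured 33.7, 31.9, 24.7 and 26.2 TPM at E12.5 and 2.42, 1.47, 1.02 and 1.93 TPM at E15.5 (log2 fold change -4.11 ± 0.23, adjusted p = 9.3e-07). *Crabp2*, which carries retinoic acid to its receptors, fell from 130.0 ± 16.6 to 8.32 ± 3.69 TPM (log2 fold change -4.02 ± 0.25, adjusted p = 1.6e-06). Beside *Aldh1a2*, the retinol dehydrogenase *Rdh10* fell from 53.6 ± 3.57 to 21.4 ± 0.872 TPM (log2 fold change -1.36 ± 0.06, adjusted p = 4.5e-07). The receptor *Rarb*, itself a target, fell from 11.1 ± 1.35 to 4.72 ± 0.373 TPM (log2 fold change -1.27 ± 0.10, adjusted p = 7.0e-06). *Aldh1a1*, another enzyme of retinoic acid synthesis, rose from 3.71 ± 0.791 to 25.6 ± 2.24 TPM (log2 fold change 2.76 ± 0.14, adjusted p = 6.8e-07), and its level at E15.5 was below that of *Aldh1a2*. *Cyp26b1*, which breaks retinoic acid down, was not called (log2 fold change -0.77 ± 0.30, adjusted p = 0.051), but passed as lower without E12.5 replicate 2 (-0.97) or E15.5 replicate 3 (-0.98). It also passed with the replicate number as a block (-0.72, adjusted p = 0.032 in edgeR), with no filter (-0.78) and with a filter at 10 counts in 4 libraries (-0.774).

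Genes of the glucocorticoid response, which prepares the fetal lung for birth, rose in 7 of 15 cases and fell in 1, with a median of 0.70, or in 5 and 1 without E15.5 replicate 3. The receptor *Nr3c1* had 23.99, 22.1, 31.7 and 34.0 TPM at E12.5 and 68.9, 76.4, 89.3 and 70.7 TPM at E15.5 (log2 fold change 1.42 ± 0.13, adjusted p = 1.6e-05). *Hsd11b1*, which regenerates active glucocorticoid, rose from 0.158 ± 0.0842 to 8.78 ± 11.6 TPM (log2 fold change 5.66 ± 1.06, adjusted p = 0.0015). *Hsd11b2*, which inactivates it, fell from 95.8 ± 8.79 to 11.98 ± 4.05 TPM (log2 fold change -3.03 ± 0.22, adjusted p = 4.0e-06). The E15.5 libraries lay on opposite sides of the E12.5 libraries in these enzymes, with no overlap in either. Without E15.5 replicate 3 the value for *Hsd11b1* was 4.16. The targets *Fkbp5* (log2 fold change -0.24 ± 0.12, adjusted p = 0.1) and *Tsc22d3* (log2 fold change 0.12 ± 0.12, adjusted p = 0.43) were not called.

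Of 16 ion and water transport genes, 11 rose and 3 fell, with a median of 1.11. The chloride channels *Cftr* and *Ano1*, which secrete lung liquid, rose from 10.8 ± 2.2 to 27.8 ± 1.84 TPM (log2 fold change 1.33 ± 0.12, adjusted p = 1.3e-05) and from 36.5 ± 8.02 to 90.6 ± 17.4 TPM (log2 fold change 1.28 ± 0.16, adjusted p = 9.6e-05). The sodium channel subunits, which take up liquid at birth, rose from low levels: *Scnn1a* from 3.8 ± 0.82 to 16.1 ± 13.5 TPM (log2 fold change 2.03 ± 0.47, adjusted p = 0.0049) and *Scnn1b* from 0.759 ± 0.277 to 11.7 ± 2.46 TPM (log2 fold change 3.91 ± 0.24, adjusted p = 1.6e-06). Without E15.5 replicate 3 the log2 fold change of *Scnn1a* was 1.26. *Aqp3* was among those that fell, from 4.61 ± 1.01 to 0.556 ± 0.295 TPM (log2 fold change -3.08 ± 0.34, adjusted p = 5.0e-05). In lipid synthesis 3 of 22 genes rose and 6 fell, with a median of -0.32. *Lpcat1*, which remodels phosphatidylcholine into surfactant lipid, rose from 84.2 ± 2.87 to 173 ± 33.6 TPM (log2 fold change 1.002 ± 0.12, adjusted p = 6.3e-05). *Elovl6*, a fatty acid elongase, fell from 68.1 ± 5.83 to 30.8 ± 7.46 TPM (log2 fold change -1.18 ± 0.16, adjusted p = 1.9e-04). Fatty acid synthase, *Fasn*, was not called (log2 fold change -0.36 ± 0.09, adjusted p = 0.009).

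Antioxidant and detoxification genes rose in 10 of 28 cases and fell in 3, with a median of 0.23. Enzymes that metabolise foreign compounds went both ways. *Fmo2*, a flavin monooxygenase, rose from 0.0682 ± 0.0756 to 19.8 ± 18.2 TPM (log2 fold change 8.09 ± 0.89, adjusted p = 4.9e-05). *Cyp4b1*, a lung cytochrome P450, rose from 0.259 ± 0.0982 to 12.1 ± 3.04 TPM (log2 fold change 5.52 ± 0.29, adjusted p = 7.8e-07). *Cyp1b1*, another cytochrome P450, fell from 12.6 ± 4.36 to 3.57 ± 0.497 TPM (log2 fold change -1.87 ± 0.24, adjusted p = 1.4e-04), and *Gsto1*, a glutathione transferase, from 58.6 ± 2.19 to 33.9 ± 1.94 TPM (log2 fold change -0.83 ± 0.07, adjusted p = 8.9e-06). *Cat*, catalase, was not called (log2 fold change 0.38 ± 0.08, adjusted p = 0.0034). The log2 fold change of *Fmo2* was 9.27 without E12.5 replicate 1 and 7.23 without E15.5 replicate 3. In the hypoxia and glycolysis list 10 of 23 genes fell and 3 rose. *Slc16a3*, the lactate exporter, had 86.8, 45.4, 71.4 and 203 TPM in E12.5 replicates 1 to 4 and 14.2, 13.5, 38.5 and 25.2 TPM at E15.5 (log2 fold change -2.19 ± 0.47, adjusted p = 0.0033). In 21 of the 23 genes E12.5 replicate 4 was the highest E12.5 library. *Ldha*, lactate dehydrogenase, fell from 1026 ± 276 to 642 ± 92.5 TPM (log2 fold change -0.71 ± 0.18, adjusted p = 0.0069). *Epas1*, the endothelial HIF subunit, rose from 27.3 ± 4.18 to 73.9 ± 12.2 TPM (log2 fold change 1.41 ± 0.13, adjusted p = 1.8e-05). Without E12.5 replicate 4 the list had 7 lower, 4 higher and a median of -0.20 in place of -0.53, and *Ldha*, at -0.57, missed the 1.5-fold minimum.

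The largest rises among protein-coding genes included *S100a14*, an epithelial calcium-binding protein, with 1 count at E12.5 and 862 at E15.5, a ratio of 739.5 (95% counting interval 132 to 29240). *Sec14l3*, a lipid transfer protein of the lung, had 2 counts and 2389 counts, a ratio of 1025 (283 to 8466). *Dynlrb2*, a dynein light chain of cilia, had 3 counts and 663 counts, a ratio of 189.6 (64.6 to 922). These 3 genes were thus all but undetected at the earlier stage. The ratio was 502 for *Sec14l3* and 107.3 for *Dynlrb2* without E15.5 replicate 3. Without E12.5 replicate 2 it was 405.7 for *Dynlrb2*, and *S100a14*, then with no count at E12.5, was at least 175.8-fold higher. *Lypd2* rose from 0.25 ± 0.279 to 58.6 ± 39.3 TPM (log2 fold change 7.67 ± 0.72, adjusted p = 1.8e-05), *Cbr2*, carbonyl reductase of airway cells, from 0.233 ± 0.4 to 29.01 ± 24.4 TPM (log2 fold change 6.80 ± 0.90, adjusted p = 1.5e-04), and *Slc6a14*, an amino acid transporter, from 0.0948 ± 0.0149 to 11.8 ± 8.92 TPM (log2 fold change 6.87 ± 0.70, adjusted p = 2.9e-05). Leaving out E12.5 replicate 1 gave 8.69 for *Lypd2* and 9.44 for *Cbr2*, and leaving out E15.5 replicate 3 gave 6.06 for *Cbr2* and 6.25 for *Slc6a14*. *Hsd3b6*, a steroid dehydrogenase, was among the largest falls, from 46.1 ± 19.5 to 1.59 ± 0.576 TPM (log2 fold change -4.89 ± 0.34, adjusted p = 2.8e-06). Secreted proteins at high levels fell too: *Mdk*, midkine, from 2411 ± 62.5 to 1240.5 ± 226 TPM (log2 fold change -0.995 ± 0.12, adjusted p = 6.6e-05), and *Mif* from 1816 ± 249.8 to 911 ± 133 TPM (log2 fold change -1.03 ± 0.12, adjusted p = 6.1e-05). Of 2016 long noncoding RNAs, 262 rose and 240 fell, beside 2802 and 1639 of all 18124 genes. Among those with a mean of at least 10 TPM at the higher stage, *Gm49124* had the largest rise, from 0.356 ± 0.571 to 12.2 ± 1.5 TPM (log2 fold change 5.01 ± 0.53, adjusted p = 3.8e-05), and *Lrp8os2* the largest fall, from 13.9 ± 2.58 to 2.07 ± 0.929 TPM (log2 fold change -2.77 ± 0.31, adjusted p = 4.9e-05). As the strand setting of the counting is not given in the sources used here, reads of *Lrp8os2* and of *Lrp8* on the opposite strand may not be told apart. The value of *Gm49124* was 6.67 without E12.5 replicate 3. Immediate early genes, which respond to stress and handling, rose in 5 of 12 cases and fell in 2, or in 1 without E12.5 replicate 3 or 4 or E15.5 replicate 1 or 2. Ribosomal RNA from *Rn18s-rs5* varied with stage, at 7559.5 to 16851 TPM at E12.5 and 4674 to 8515 TPM at E15.5, with overlapping libraries (log2 fold change -1.01 ± 0.25, adjusted p = 0.0069).

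The rise of differentiation genes was uneven among the E15.5 libraries. Replicate 3 was the highest of the 4 in 2056 of the 2802 genes called higher, against 6650 of all 18124 genes, and replicate 4 was the lowest in 1660. Among the 1639 genes called lower, replicate 3 was the lowest E15.5 library in 891 and replicate 4 the highest in 726. Replicate 3 was highest in 19 of 21 type 2 genes, 18 of 19 ciliated genes and 15 of 18 type 1 genes, and lowest in 42 of 48 cell cycle genes, of which replicate 4 was highest in 34. The labels give no finer stage than the day, and the part of age within the day, sex or dissection in this order was not tested.

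**Figure D4:**
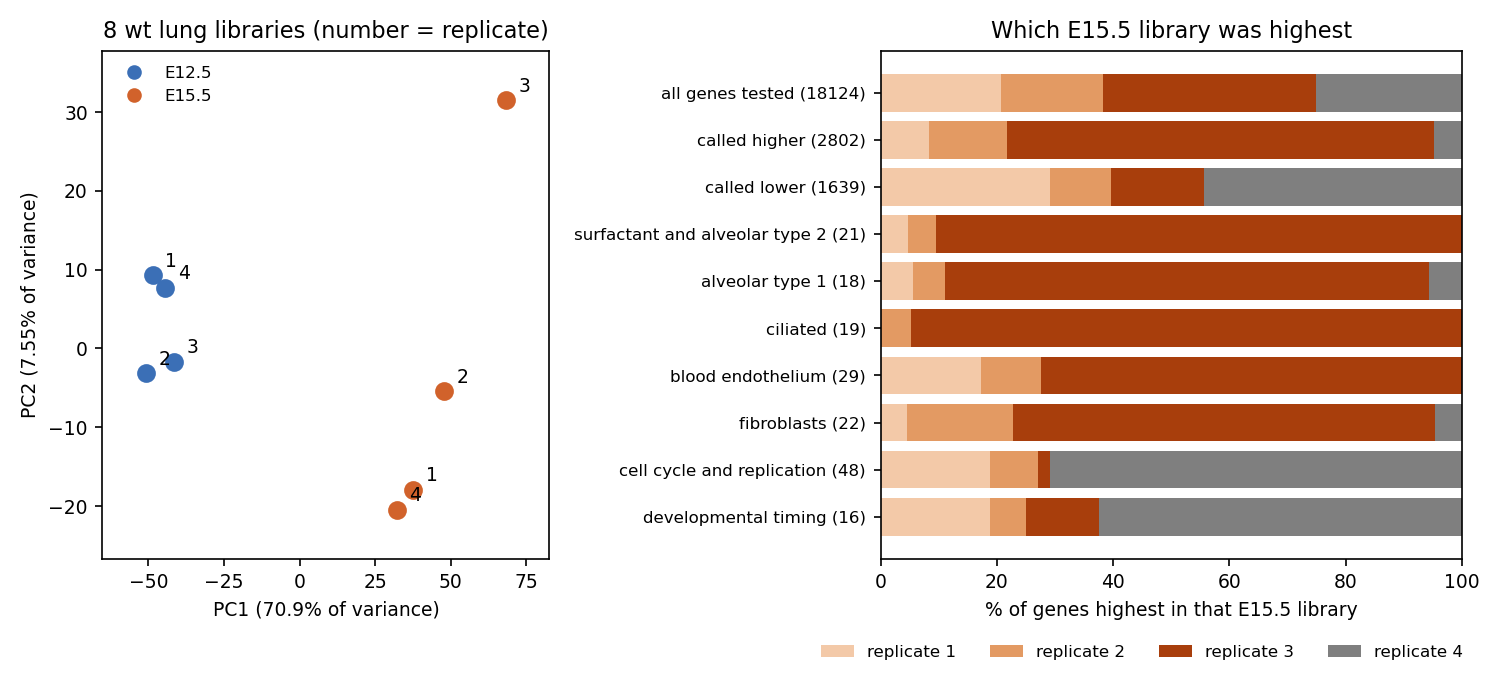
Left, the 8 wt lung libraries on the first and second principal components of log2(TPM + 1), with the replicate number beside each point. Right, for all genes, the called genes and 7 lists, the percentage of genes in which each E15.5 replicate was the highest of the 4, with replicate 3 in dark brown holding most of the type 2, type 1 and ciliated genes.

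The same stages were compared in *Hoxa5*-/- lung, where *Hoxa5*, the targeted gene, was at 30.8 to 74.9 TPM in the mutant libraries and 144 to 304 TPM in wt. A pair of mutant libraries stood apart: E15.5 replicate 4 had 196807 TPM of *Rn18s-rs5* against 4133 to 4453 in the other 3, and E12.5 replicate 1 had 126227.5 TPM of embryonic globins, against 17664.8 to 24176.1 in the other 3. This E12.5 library also had 0.399% mitochondrially encoded counts, against 1.77% to 2.01% in the other 3. Its immediate early genes summed to 2652 TPM, against 302.3 to 352.4 TPM. The cause was not tested. Of 18170 genes tested, 3610 (19.9%) were called, 2314 (12.7%) higher and 1296 (7.13%) lower at E15.5. The number was 3699 without the first of these libraries and 3625 without the second. Among the 17598 genes tested in both genotypes, 3094 were called in the same direction in both, which is 72.9% of the 4246 called in wt and 88.9% of the 3481 called in mutants, and 2 were called in opposite directions. The test of the difference between genotypes, an interaction of stage and genotype, called 5 of 18696 genes (0.0267%), with 978 at an unadjusted p under 0.05, 16 called by DESeq2 and 0 to 7 called on leaving out 1 library. *Sftpc* had a log2 fold change of 7.39 ± 0.59 in mutants (adjusted p = 1.5e-05) and of 8.22 ± 0.40 in wt. *Hmga2* had -3.25 ± 0.22 (adjusted p = 5.7e-06) and -3.55 ± 0.19, and *Foxj1* 4.16 ± 0.72 (adjusted p = 0.0014) and 4.67 ± 0.53. A difference of the stage effect between genotypes was therefore not detected in these genes, with adjusted interaction p of 0.97, 0.98 and 0.99 in edgeR. In mutants type 2 genes rose in 18 of 21 cases and fell in 1, and ciliated genes rose in 12 of 19. Not every list matched wt. Hypoxia and glycolysis genes, with 3 higher and 10 lower of 23 in wt, had 5 higher and 2 lower in mutants. The neural crest list had 1 higher and 7 lower of 16 in mutants, with a median of -0.60 against -1.88 in wt. In each of these lists 0 members had a called interaction. Of the 5 genes with a called interaction, the cartilage collagens *Col9a1* and *Col9a3* had log2 fold changes of -0.18 ± 0.08 and 1.04 ± 0.11 in wt and of -1.11 and -0.09 in mutants.

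**Figure D5:**
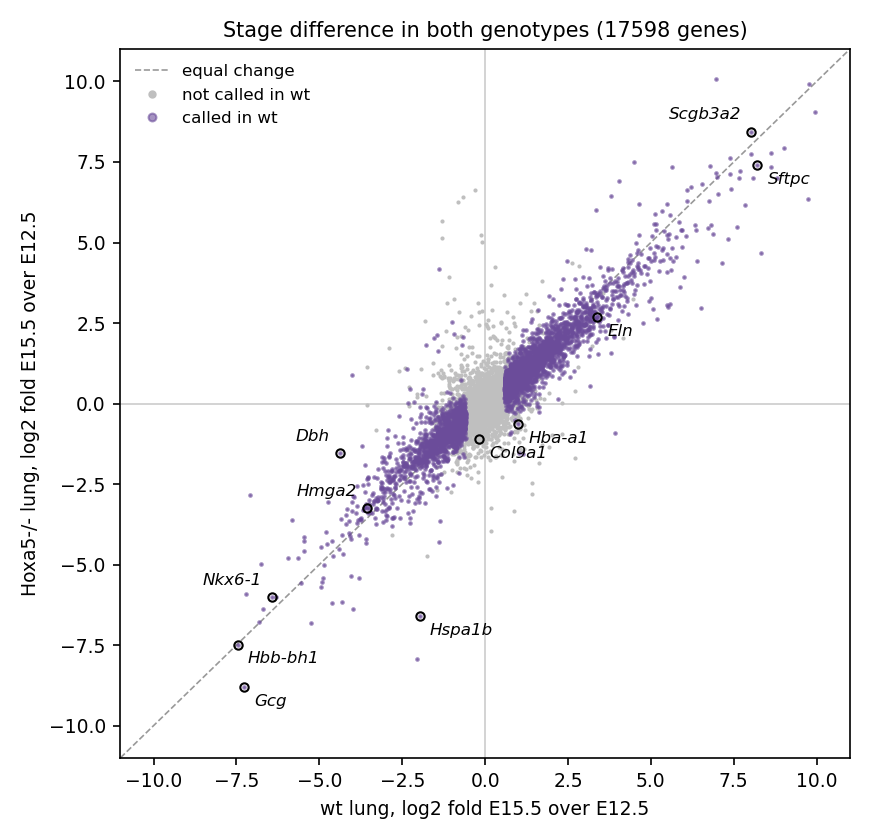
Log2 fold change from E12.5 to E15.5 in wt (horizontal axis) and *Hoxa5*-/- lung (vertical axis) for 17598 genes, purple where called in wt, with the dashed line at equal change. *Sftpc* and *Scgb3a2* lie at the upper right and *Hbb-bh1* and *Gcg* at the lower left in both genotypes.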

How the data were processed

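Per the study's methods, the authors trimmed single-end reads of 100 bases from polyA-selected RNA with Trim Galore 0.6.5, aligned them to GRCm39 with STAR 2.7.9a and counted them per gene with featureCounts 2.0.3, on an annotation curated for *Hox* genes. The authors deposited raw counts per gene, exon lengths per gene in bases (another kind of value, used as given), and TPM values made from both. Dividing the counts by the lengths gave back the deposited TPM, with a largest deviation of 2.91e-11. Reads from near-identical genes can be split or lost in such counting, and the strand setting is not given in the sources used here.

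Groups came from the labels. Counts were tested with edgeR 4.0.16 (quasi-likelihood F test, TMM normalisation, stage as the only term, R 4.3.3, limma 3.58.1), with Benjamini-Hochberg adjustment over all genes tested, after a filter at a mean of 1 TPM in either stage. A gene was called at an adjusted p under 0.05 and at least 1.5-fold. The same test was run on 8 *Hoxa5*-/- lung libraries, and an interaction of stage and genotype on all 16. The model was checked on simulated counts. Alternatives were DESeq2 1.42.0, other scalings and filters, other fold minima, *Xist* as a covariate, a replicate block, all 16 libraries in 1 fit, and leaving out each library. Tables were made with Python 3.11.15 (pandas 2.3.3, numpy 2.4.6, scipy 1.17.1) and plots with matplotlib 3.10.9.

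The 48 gene lists (858 genes) and their members were chosen with earlier results of these data known, and they were counted, not tested. Named genes were the preset anchors of each list, up to 3 called members with the largest rise and 3 with the largest fall per list whose stages did not overlap, and genes from the 15 largest rises and falls among protein-coding genes with at least 10 TPM, the 5 among long noncoding RNAs and the 10 largest differences in TPM. Genes whose call rested on 1 library, and the genes with a called interaction, were named after their values were seen. Some genes that this rule names are not reported here. Depth was 27355758 to 45528006 counts per library.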

Additional observations from a re-analysis of the deposited data

Results flagged for a closer look

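Within a stage, 30 of the 414 sets of 4 wt lung libraries tested (7.25%) held 1 library far from the other 3. The sets are those of the named genes, some named for their values, and they share the same libraries. This share can therefore not be set against a rate by chance. In each case the library stood above the others. E15.5 replicate 3 was that library in 17 of them, and the values of the other 3 libraries follow in brackets. Among epithelial genes, E15.5 replicate 3 had 118 TPM for *Cebpa* (46.4 to 54.6), 3.56 TPM for *Dnai1* (1.21 to 1.36), 36.9 TPM for *Krt15* (10.9 to 14.8), 36.4 TPM for *Scnn1a* (8.33 to 11.1) and 98.2 TPM for *Shh* (75.4 to 76.9). Among genes of fibroblasts, matrix and lipid storage it had 51.2 TPM for *Dpt* (8.41 to 15.2), 767 TPM for *Eln* (397 to 446), 388 TPM for *G0s2* (102 to 146), 533 TPM for *Igfbp5* (489.9 to 496), 321 TPM for *Lama5* (192 to 203) and 108 TPM for *Plin2* (84.8 to 85.8). Of the rest, it had 44.1 TPM for *E2f2* (29.9 to 31.3), 141 TPM for *Fgfr4* (98.7 to 104) and 46.7 TPM for *Fmo2* (8.4 to 14.8). It also had 7871 TPM for *H19* (5330.0 to 5682), 26 TPM for *Hsd11b1* (1.52 to 5.22) and 24.2 TPM for *Msln* (3.29 to 6.25). These genes are known from epithelium, fibroblasts and mesothelium alike.

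Of the other E15.5 libraries, replicate 1 had 23.4 TPM for *Alb* (1.88 to 4.38), replicate 2 had 28.9 TPM for *Aldh1a1* (24.2 to 24.9), and replicate 4 had 7.24 TPM for *Wnt2b* (4.09 to 4.63). At E12.5, replicate 1 had 0.8285 TPM for *Cbr2* (0 to 0.104), 173 TPM for *Id2* (138 to 141), 297 TPM for *Igf2* (255 to 260.2) and 424 TPM for *Mfap4* (315 to 332), and replicate 2 had 0.058 TPM for *S100a14* (0). E12.5 replicate 3 had 1.07 TPM for *Alb* (0.0469 to 0.128), 2.98 TPM for *Krt15* (1.62 to 1.8) and 1.5 TPM for *Scgb3a2* (0.157 to 0.375), and replicate 4 had 81.2 TPM for *Hes1* (71.8 to 73.4) and 4.39 TPM for *Klf5* (2.56 to 2.81). No explanation of these values was tested.

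The stage difference itself differed between genotypes in 5 genes by the edgeR test of the interaction. For *Slitrk6*, a neuronal transmembrane protein, the log2 fold change was -1.68 in wt and -0.50 in *Hoxa5*-/- lung, a difference (mutant minus wt) of 1.18 (adjusted p = 0.023). For *Rnf152*, a ubiquitin ligase, it was 1.11 and 2.14, a difference of 1.03 (adjusted p = 0.021). The cartilage collagen genes went the other way, with -0.18 and -1.11 for *Col9a1*, a difference of -0.93 (adjusted p = 0.021), and 1.04 and -0.09 for *Col9a3*, a difference of -1.13 (adjusted p = 0.019). *Negr1*, a neuronal adhesion molecule, had -0.37 and -1.38, a difference of -1.02 (adjusted p = 0.046). Leaving out 1 of the 16 libraries left between 0 and 7 such genes, and 0 were left without E12.5 *Hoxa5*-/- replicate 3 or 4, E12.5 wt replicate 3, E15.5 *Hoxa5*-/- replicate 2, or E15.5 wt replicate 1 or 2.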

How the results depend on the processing

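Of the choices tried for the wt comparison, the fold minimum and a higher TPM filter moved the number of genes called by over 1.5 times. With no fold minimum 9076 genes were called, 4740 higher and 4336 lower. With a 2-fold minimum 2740 were called, 1820 higher and 920 lower, and with a filter at 5 TPM 2803 were called, 935 of them lower. The other settings gave 4305 (DESeq2) to 5600 (no filter), among them 4674 with *Xist* as a covariate and 4424 without erythroid genes. Leaving out 1 wt library gave 4100 to 4605, and 1 *Hoxa5*-/- library 3097 to 3699. The interaction of stage and genotype gave 16 genes by DESeq2 and 0 to 3 in the fits without 1 library that moved the count. With the replicate number as a block 4341 genes were called in wt, 3458 in *Hoxa5*-/- lung and 3 for the interaction, and the numbers share no source in the labels. Deviations of same-numbered libraries correlated at -0.11 to 0.05, and the numbers were not used as pairs. Of 528 combinations of a list and an alternative, 1 turned the balance of a list, the hepatocyte list under the block.

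Of 207 named genes, 171 were called, and 0 of these changed sign. The call was lost in some setting by 8 of them, in the fit of all 16 libraries by *Alb* (adjusted p = 0.074 in edgeR), *Hba-a1* (0.134) and *Rn18s-rs5* (0.433), and without 1 library by *Aqp5*, *Bmp4*, *Id2*, *Ldha* and *Plin2*. Of the genes not called, 7 changed sign, all near 0. With *Xist* as a covariate the log2 fold change was 0.062 for *Flt1* and 0.12 for *Vegfa*, and with the replicate block it was 0.015 for *Vegfa*. Leaving out 1 library gave -0.155 to 0.059 for *Flt1*, -0.143 to 0.188 for *Vegfa*, -0.034 to 0.067 for *Cd68*, -0.014 to 0.072 for *Sox9*, -0.165 to 0.018 for *Ptch1*, -0.011 to 0.198 for *H19* and -0.021 to 0.215 for *Tsc22d3*. With the replicate block *Mki67* and *Cyp26b1* were called. The causes of these changes were not tested. Depth limits genes with few counts at E12.5, whose folds are given as bounds or with counting intervals.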

Other observations

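In the annotation used for counting, the mitochondrial genes *mt-Atp6*, *mt-Atp8*, *mt-Co2*, *mt-Co3*, *mt-Nd3* and *mt-Nd4l* were at 0 counts in each of the 8 wt lung libraries.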
